A study of Homo sapiens with 9 samples.

Results

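Short stretches in which SF3B1 binding sites lie side by side were described in the leukaemia cell line K562, an established human line. SF3B1 belongs to the U2 snRNP, a small nuclear ribonucleoprotein of the splicing machinery whose RNA pairs with the branch point of an intron. Around the branch point SF3B1 touches the RNA on both sides, and U2AF2 holds the pyrimidine tract between the branch point and the 3′ splice site. The sites came from iCLIP, in which ultraviolet light joins a protein to the RNA it touches and sequencing marks the joined bases.

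The series holds 9 libraries in 3 groups. SF3B1 was precipitated in 3 libraries from SF3B1 wt/wt cells and 2 from SF3B1 K700E/wt cells, both lines obtained from Horizon Discovery, and U2AF2 in 4 libraries from SF3B1 wt/wt cells obtained from ATCC. All cells received 400 mJ/cm2 of light at 254 nm and no other treatment, and 10 µg of antibody was used. The labels do not say whether the K700E/wt line is a single clone, nor whether replicates were separate cultures. Only the merged list of SF3B1 sites that the labels tie to the 3 SF3B1 wt/wt libraries was analysed here, and its header says that sites were reproduced by all replicates of either condition. A site therefore cannot be assigned to a genotype. The list holds positions without read numbers or replicate values, so depth is unknown and no difference below was tested. Intervals are 95% Wilson intervals for counting error only, and clusters within a gene share a transcript.

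Runs were defined by the distance between site centres on the same strand. Sites at most 60 nt apart were linked into clusters, and sites at most 12 nt apart into elements. A cluster of 2 or more sites that forms a single element is called a run. The list held 5700 runs among 61570 clusters, or 9.26%, and they contained 12021 of the 96852 sites, or 12.4%. The remaining clusters were 38991 single sites, 14296 clusters of 2 elements and 2583 clusters of 3 or more elements. Distances chose the members, so the number, width and inner distances of runs are descriptions.

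The labelled cell type was read from sites in marker genes. Of 13 erythroid and BCR-ABL1 markers of K562, 8 had a site and 7 had a run, where 40.5% of all protein-coding genes with a site had one. TFRC, the transferrin receptor that brings iron into erythroid cells, had 9 runs among 74 clusters. TAL1, a transcription factor of blood stem cells and the erythroid lineage, had 1 run among 10 clusters, and GATA1, the leading erythroid transcription factor, had 4 clusters and no run. HBG1, HBG2, HBE1 and KLF1 had 0 sites. None of 6 lymphoid and 2 liver markers had a site, although the labels name a lymphoid leukaemia as the source. A site needs both RNA and reproducible crosslinking, so a gene without one may still be expressed.

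Sequences are shown for a few runs, because they let a reader see what the side-by-side sites cover. The RefSeq promoter table (GRCh38.p14) spans 250 bases before and 50 bases after gene starts, and 19 runs lay whole inside such a window, 14 of them on the strand of the gene that starts there. Those with 3 sites, those after a start on the gene's strand, and those with the least and the most T are printed 5′ to 3′ on the strand of the sites, each under the protein-coding gene that contains it. The windows that hold the runs of ECI1, PIAS1 and TRIM39 are those of other genes. Capitals mark the bases from the first to the last site of the run.
PPP2R5C, chr14:101762356-101762385, plus strand: tacgggggaaAGGGAGCGAGaagggacccc
ECI1, chr16:2251472-2251500, minus strand: gtgggcAGGGATCGGGCCGGGGCcggggc
TP53I13, chr17:29568218-29568247, plus strand: gaccCTCTCCCTTCAGCAGCTCTTCCtgac
ZNF595, chr4:53341-53370, plus strand: agggcttggTTTAGGGCTTCAgctctctgc
RPL38, chr17:74203672-74203700, plus strand: ctcgttcTTTTTCGTCCTTTTCcccggtt
PIAS1, chr15:68187507-68187536, plus strand: ttaacATTTTTGTGTCTTTTGTTTCccctc
ZNF311, chr6:29005266-29005288, minus strand: ctgacccattCTTTTTATTCttc
SLMAP, chr3:57890014-57890043, plus strand: gatggtaacgTTTATTTTCCttggcagaga
TRIM39, chr6:30329266-30329294, plus strand: ccaattaatATTTTTATTTTctctgtcct

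The printed runs, chosen in part for their T, ranged from 0% T in PPP2R5C to 81.8% in TRIM39. T stands for U in the RNA. TP53I13 had 31.8% and ZNF595 41.7%. The share of T was 70% in SLMAP, which encodes a membrane-anchored protein, in PIAS1, which encodes a SUMO ligase, and in ZNF311. It was 66.7% in RPL38, a protein of the large ribosomal subunit, where the run lay among the first 50 bases after the annotated start. In contrast, the run of PPP2R5C, a regulatory subunit of protein phosphatase 2A, held no T and only A, G and C. The 3 sites of ECI1, a mitochondrial enzyme of fatty acid oxidation, covered a G-rich stretch with 5.88% T. Over all 19 runs, T made up 48.0% of 254 bases, against 24.8% of the bases within 20 nt on either side. The 191 single sites in such windows held 59.5% T, against 26.7% beside them. The bases of runs include gaps between sites, which single sites lack, so the 2 kinds are not directly comparable in T. Windows near gene starts are not a sample of all runs, since they contained 0.333% of them.

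Of the 1562 miRNA hairpins in the RefSeq sequence table, 3 contained a whole run on the same strand. They are shown because each printed hairpin ends in cag, the last bases of many introns, and some miRNA hairpins of this kind are excised as whole introns. Whether these hairpins are introns was not examined. Sequences are RefSeq hairpins of GRCh38.p14 written with T, and capitals mark the run.
MIR6851, chr9:33467869-33467935, minus strand: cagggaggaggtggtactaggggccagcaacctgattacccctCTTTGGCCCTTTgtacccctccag
MIR6748, chr11:62789815-62789885, plus strand: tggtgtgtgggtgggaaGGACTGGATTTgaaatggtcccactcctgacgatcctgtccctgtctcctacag
MIR6766, chr15:89326739-89326810, minus strand: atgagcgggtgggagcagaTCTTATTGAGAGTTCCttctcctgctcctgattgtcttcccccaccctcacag

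The runs in MIR6748 and MIR6766 ended 43 and 37 bases before the 3′ end of the hairpin, and that in MIR6851 ended 12 bases before it. MIR6748 lies within the outer limits of TMEM179B and TMEM223, MIR6766 within POLG, the mitochondrial DNA polymerase, and MIR6851 within NOL6, a nucleolar protein. In the same 1562 hairpins lay 16 single sites, 8 clusters of 2 elements and 2 larger clusters. Other small RNA genes held the middle of a run, but here the strand of the small RNA gene was not compared. These genes were MIR6875 inside TRIP6, MIR1282 inside SERF2, SNORD20 inside NCL, SNORD97 inside EIF4G2, SCARNA7 inside KPNA4 and SCARNA14 inside TIPIN. RNU2-2, a gene for U2 snRNA itself, had a run of 2 sites on the minus strand of chromosome 11 at 62841641 to 62841650. Reads from U2 genes can belong to several copies, so that run is uncertain.

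Most runs held the smallest number of sites that the rule allows. Exactly 2 sites made up 5172 runs, or 90.7% (interval 90.0% to 91.5%), 3 sites made up 462, and 66 runs held 4 to 6 sites. Widths had a median of 12 nt and quartiles of 11 nt and 14 nt, up to 51 nt in the widest run. Runs of 3 sites had a median width of 19 nt, and those of 6 sites 45 nt. All sites touched without a gap in 1268 runs, or 22.2%. Sites covered 80.3% of the 74855 bases that the runs spanned. The strands were near equal, with 2928 runs on plus and 2772 on minus.

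**Figure D1:**
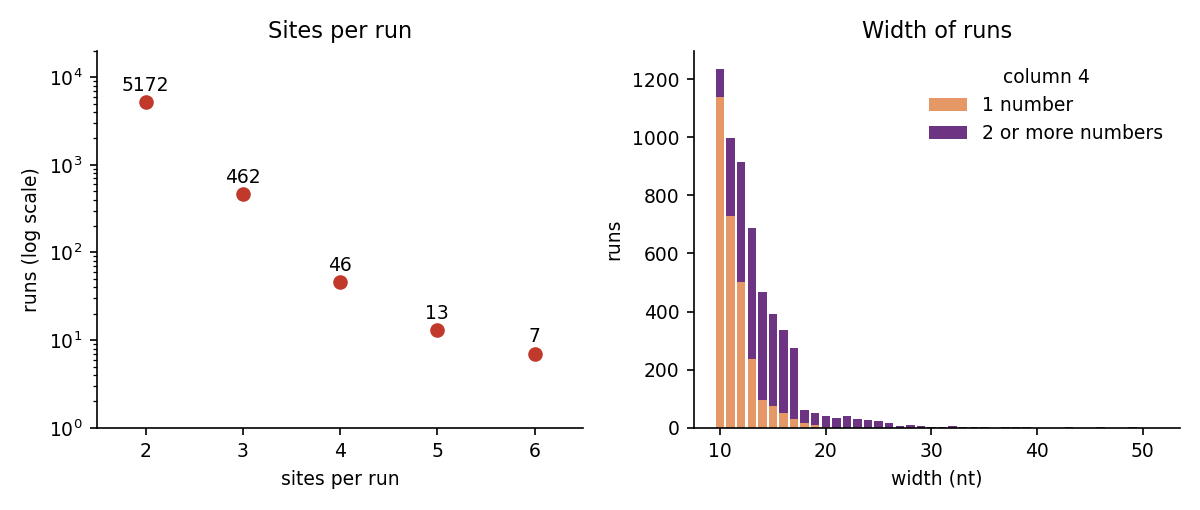
Left, the number of runs (log scale) by sites per run, from 5172 runs of 2 sites to 7 runs of 6. Right, the number of runs by width in nt, coloured by whether their sites share 1 running number (2900 runs) or carry 2 or more (2800 runs).

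Column 4 of the list gives each site a running number, which some neighbours share. The list does not say what the number stands for. All sites had 1 number in 2900 runs, or 50.9% (49.6% to 52.2%), and 2 or more numbers in 2800. Runs with 1 number had a median width of 11 nt and the others 14 nt. Among runs of 2 sites, 2789 had 1 number. Among those of 3 sites, 108 had 1 number and 104 had a separate number for every site. No number was skipped inside a run, since the largest step between neighbours was 1.

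Sharing a number followed distance closely. In runs, 91.6% of the 1520 neighbours 5 nt apart shared a number, 54.7% of the 1070 at 7 nt, 20.1% of the 552 at 9 nt and 2.85% of the 316 at 12 nt. Neighbours at the same distances in clusters of 2 or more elements gave 91.9%, 60.4%, 22.2% and 3.69%. The intervals overlapped at every distance from 5 to 12 nt except 7 nt. At 7 nt they were 51.7% to 57.6% in runs and 58.0% to 62.8% elsewhere. Runs held 6321 of the 15363 neighbours 5 to 12 nt apart, or 41.1%, and the most frequent distance was 5 nt in both settings, 24.0% in runs and 23.6% elsewhere.

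**Figure D2:**
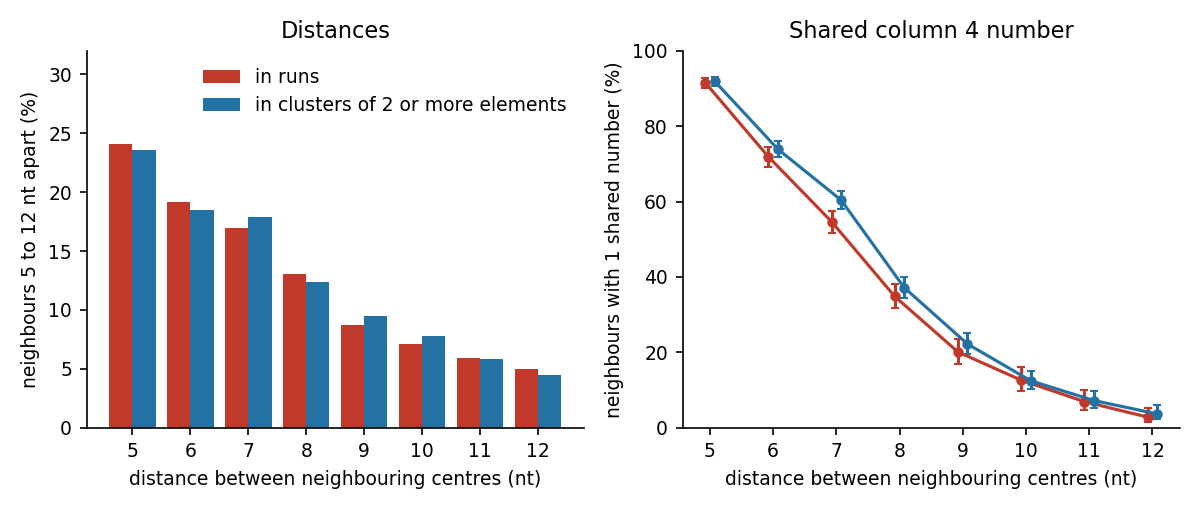
Left, the share of neighbouring centres at each distance from 5 to 12 nt, in runs and in clusters of 2 or more elements. Right, the share of those neighbours that carry 1 number, with 95% Wilson intervals. Both sets fall from over 90% at 5 nt (91.6% in runs) to 2.85% in runs at 12 nt.

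The limits of the rule fall in a continuous range. Clusters of 2 sites numbered 220 at a distance of 12 nt, the last inside, and 153 at 13 nt, the first outside. A shared number occurred in 9 and 1 of them. Elements of 2 or more sites whose nearest other centre lay 61 to 65 nt away, just inside, numbered 77, of which 37 had 1 number. Just outside, at 56 to 60 nt, there were 89, of which 49 had 1 number. At 66 to 70 nt, also inside, 34 of 61 had 1 number. The median width was 12 nt outside and 13 nt and 12 nt in these steps inside.

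Lone elements had several sites less frequently than elements with a partner. Of 44691 lone elements, 12.8% (12.4% to 13.1%) had 2 or more sites, and these are the runs. Of 28592 elements in clusters of 2, 22.9% (22.4% to 23.4%) had 2 or more, and of 8206 in larger clusters, 17.5% (16.7% to 18.4%). The lone elements were lower than those in clusters of 2 on 23 of 23 chromosomes. Distances between centres set both the groups and the sites per element, so this contrast is a description and the chromosomes add no support. It was not recomputed at other distances. Within clusters of 2, the upstream element had 2 or more sites in 25.1% and the downstream element in 20.7%, and the upstream share was higher on 22 chromosomes. Elements with several sites had a mean width of 13.1 nt in runs and 13.3 nt in clusters of 2 and in larger ones. Exactly 2 sites made up 90.7% of runs (90.0% to 91.5%), 88.1% of such elements in clusters of 2 and 88.0% in larger clusters. The share with 1 number was 50.9%, 50.98% and 53.5%.

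The nearest site outside a run was examined along the direction of transcription, because single sites and clusters of 2 elements have opposite sides on which sites are near. A site lay 100 to 250 nt downstream of 1332 runs, or 23.4% (22.3% to 24.5%), and at that distance upstream of 1197, or 21.0%, with an upper bound of 22.1%. Clusters of 2 elements had 25.5% downstream and 18.5% upstream. Single sites had the reverse order, with 18.0% downstream (17.6% to 18.4%) and 21.2% upstream (20.8% to 21.7%). Runs thus lay between them in the difference, which was 2.37 percentage points, against 6.98 for clusters of 2 elements and -3.24 for single sites. Their upstream share was near that of single sites and their downstream share nearer that of clusters of 2 elements. Each near pair counts once as downstream of 1 cluster and once as upstream of another. Over all clusters the downstream and upstream counts are therefore equal. A negative difference of single sites thus requires a positive one elsewhere, and the differences are not separate results.

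The downstream share exceeded the upstream share on 17 of 23 chromosomes for runs, 21 for clusters of 2 elements and 1 for single sites. The counts of pairs balance within each chromosome too, so these numbers of chromosomes are tied to each other. Runs exceeded single sites in the downstream share on 22 chromosomes. By strand, the difference for runs was 2.90 points (plus) and 1.80 points (minus). It was 1.21 points for runs with 1 number and 3.57 for the others, and it fell to 0.55 among clusters whose sites all touch. At 400 to 550 nt, 4.05% of runs had their nearest downstream site and 4.47% their nearest upstream site. Runs of 3 or more sites had near sites on both sides more frequently, 32.6% downstream and 26.3% upstream, against 22.4% and 20.5% for runs of 2.

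The kind of neighbour differed by side for runs as it did for other clusters. Of the 1332 downstream neighbours of runs, 881 were single sites, or 66.1% (63.6% to 68.6%), and 272 were clusters of 2 elements, or 20.4%. Of the 1197 upstream neighbours, 638 were single sites, or 53.3% (50.5% to 56.1%), and 350 were clusters of 2 elements, or 29.2%. Another run was the neighbour in 114 cases on either side, which are the same pairs seen from each end. Single sites were likewise 63.8% of the downstream and 54.1% of the upstream neighbours of single sites, and 66.6% and 57.9% of those of clusters of 2 elements. Every pair is counted from both ends, so these shares are not independent. In steps of 20 nt, the distance with the most runs was 121 to 140 nt upstream (4.12%) and 141 to 160 nt downstream (4.23%). The median distance to the nearest site on either side was 316.5 nt for runs, 325 nt for clusters of 2 elements and 364 nt for single sites, and 34.4% of runs had no site within 1 kb.

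**Figure D3:**
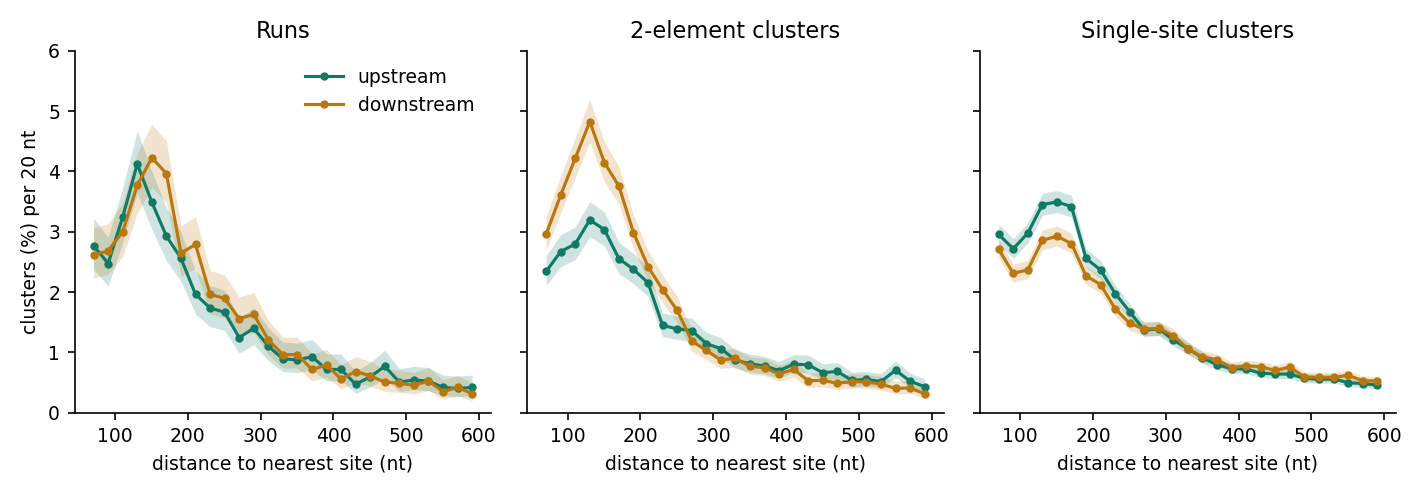
Share of clusters whose nearest site on the same strand lies at each distance (steps of 20 nt) upstream or downstream, for runs, clusters of 2 elements and single sites, with 95% Wilson bands. At 121 to 140 nt the downstream share is 3.77% and the upstream share 4.12% for runs, 4.83% and 3.20% for clusters of 2 elements, and 2.86% and 3.45% for single sites.

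Runs lay almost entirely in protein-coding genes. Of all runs, 5506, or 96.6% (96.1% to 97.0%), had their middle inside such a gene, against 96.9% of single sites and 97.5% of clusters of 2 elements. A single protein-coding gene contained 5368 runs, and 138 lay in overlapping ones. Where the promoter table gives the strand of the gene, 4508 of 4520 runs, or 99.7%, were on it. The other 194 runs comprised 116 in lncRNA genes, which make long non-coding RNAs, 45 in transcribed pseudogenes, 1 in another kind of gene and 32 in none. The span of a gene is its outermost one, and exons and introns were not distinguished here.

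Runs were placed along genes much as other clusters were. The share in the first 10% of the gene was 4.56% (4.04% to 5.16%), and 5.02% for single sites. It rose to 13.6% between 70% and 80% of the gene and was 12.6% (11.7% to 13.5%) in the last 10%, where single sites had 12.9%. The median position was 61.2% of the gene for runs and 61.8% for single sites. Genes of at least 50 kb held 15.1% of their runs in the last 10% and shorter genes 9.92%, with 16.4% and 9.36% for single sites. In the last 1 kb lay 162 runs, or 3.02%, and in the first 1 kb 98 runs, or 1.83%, against 2.79% and 2.18% of single sites. In the last 10% runs were above single sites on 8 of 23 chromosomes.

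**Figure D4:**
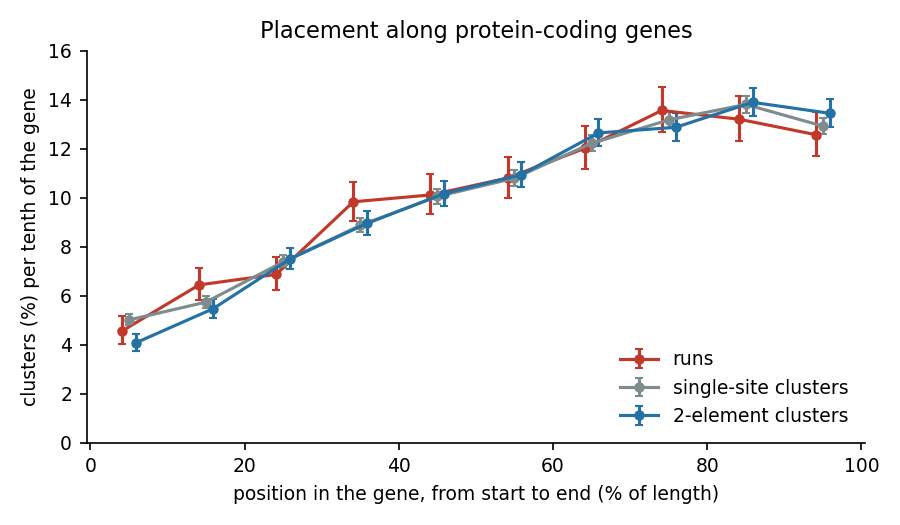
Share of clusters in each step of 10% of the protein-coding gene that contains them, from start to end in the direction of the sites, with 95% Wilson intervals. Runs (5368), single sites and clusters of 2 elements follow nearly the same rise, from 4.56% of runs in the first 10% to 12.6% in the last.

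A run was found in 2999 protein-coding genes, which is 15% of all 20037 and 40.5% of the 7401 with a site. There was 1 run in 1794 genes, 5 or more in 143, and at most 19. Runs followed the number of clusters in a gene. They made up 9.20% of the clusters assigned to 1 protein-coding gene, 8.56% in genes with 2 to 4 clusters, 8.96% with 10 to 19 and 9.41% with 40 or more. Gene length made little difference, with 9.32% under 20 kb and 9.87% at 200 kb or more. The share of runs per chromosome ranged from 7.54% on chromosome 14 to 10.5% on chromosome 4.

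The genes with the most runs were those with many clusters. NUP214, a nuclear pore protein, had 19 runs among 141 clusters, or 13.5% (8.80% to 20.1%), all on the plus strand of chromosome 9. UBR4, a very large ubiquitin ligase, had 17 runs among 166 clusters, or 10.2% (6.49% to 15.8%). PRKDC, the catalytic subunit of the DNA-dependent protein kinase, had 12 runs, and NBAS, which acts in transport between Golgi and endoplasmic reticulum, had 11. ZMYND8, a reader of histone marks, also had 11, and CPED1 and the ubiquitin ligase HERC1 had 10. IARS1, the isoleucyl-tRNA synthetase, NRDC, a metalloprotease, and PICALM, a clathrin assembly protein, had 9. The interval of each of these 10 genes contained the overall 9.20%.

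The highest shares were found in genes with fewer clusters, and these genes were chosen for that share among the 1915 with at least 10 clusters. NPEPPS, an aminopeptidase, had 6 runs among 13 clusters, or 46.2% (23.2% to 70.9%). CPSF3, the endonuclease that cuts pre-mRNA before polyadenylation, had 5 among 11. NDUFS1, a subunit of respiratory complex I, had 6 among 14. PPIH, a cyclophilin of the U4/U6·U5 tri-snRNP, and RPL9, a ribosomal protein, had 4 among 10, as did CYRIB. TNFRSF10B, TMEM245, STRBP and DCTN2, a subunit of dynactin, had between 33.3% and 35.7%. The median over the 1915 genes was 8.51% with quartiles of 4.17% and 13.8%, and 409 of them had no run. Reads of RPL9 and NPEPPS can belong to near-identical copies, so their counts are uncertain.

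**Figure D5:**
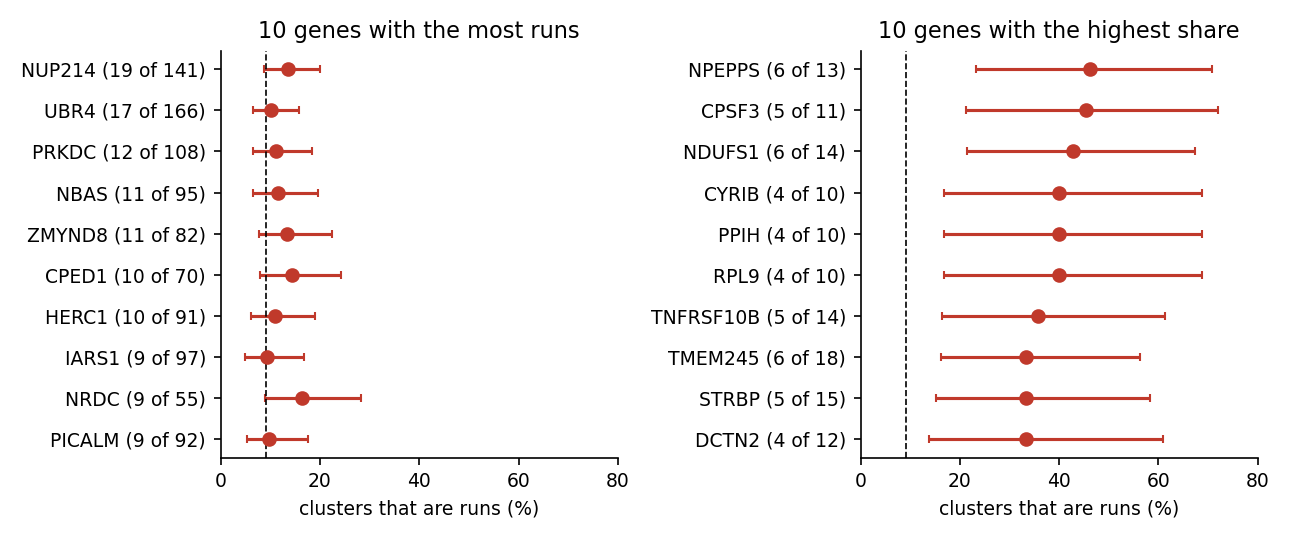
Share of the clusters in a gene that are runs, with 95% Wilson intervals and the counts beside each symbol, for the 10 genes with the most runs (left) and the 10 with the highest share among genes with 10 or more clusters (right). The dashed line is the share over all protein-coding genes, 9.20%; the left genes lie near it and the right genes were picked for lying above it.

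The longest runs held 6 sites. The widest, 51 nt with 5 numbers, lay in MARCHF7, a membrane-associated ubiquitin ligase gene, on the plus strand of chromosome 2 at 159762801 to 159762851. That in COX20, an assembly factor of cytochrome c oxidase, covered 49 nt on the plus strand of chromosome 1 at 244842985 to 244843033. NF1, which encodes a GTPase-activating protein of Ras, had one of 42 nt on the plus strand of chromosome 17 at 31258294 to 31258335. TTC3, a ubiquitin ligase gene on chromosome 21, had one of 45 nt, which lay 671722 nt from the nearest upstream site. The others lay in RAB11FIP1, in the non-coding gene CCDC26 and in ZNF117, whose span overlaps a read-through gene. Among the 13 runs of 5 sites, TAL1 had one of 49 nt, and NOC3L and DDIT3, a transcription factor of the stress response, had 46 nt each. A run in the transcribed pseudogene NSUN5P1 was the only one of 5 sites with 1 number and covered 29 nt.

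Longer runs were too few to place along genes precisely. Of the 59 runs with 4 or more sites in 1 gene, none lay in the first 10%, with an upper interval bound of 6.11%, and 3 lay in the last 10%. Runs of 3 or more sites had 10.5% in the last 10% (8.12% to 13.5%), against 12.8% of runs of 2.

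Non-coding genes with 3 or more runs numbered 19. They were picked for that count, so high shares among them follow in part from the choice. MALAT1, an abundant nuclear long non-coding RNA, had 8 runs among 27 clusters, or 29.6% (15.9% to 48.5%), all on its own strand. TALAM1 is annotated antisense over MALAT1 and contains the same 8 runs. LINC02476 had 6 runs among 25 clusters, SUZ12P1, a pseudogene of a Polycomb gene, 5 among 17, and CCDC26 and LINC01029 had 4 each. SNHG1 and SNHG17, hosts of small nucleolar RNAs, PTPRVP, LINC01203 and LINC01287 had 3 each. The runs of the other 8 also lay within protein-coding genes. Of these, GPR84-AS1 had 7 runs, LOC128966623, which spans HNRNPH1, 5, LOC105378011, over MYB, 4, and ADAMTSL4-AS2, LINC01089, LOC124904162 and TRIM59-IFT80 3 each. The runs over GPR84-AS1, LOC128966623, ADAMTSL4-AS2, LOC124904162 and TRIM59-IFT80 were on the opposite strand to that gene. In contrast, the 6 over TTN-AS1 were on its strand, opposite to TTN, and the 3 over LINC01089 were on the strand of LINC01089. For LOC105378011 the strand of the gene was not given. Outside protein-coding genes, 10.4% of clusters (9.11% to 11.9%) were runs. Among those of these clusters in lncRNA genes the share was 11.2% (9.40% to 13.2%).

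Genes of the splicing machinery had a share of runs near that of all genes. The U2 snRNP and branch point list had a run in 12 of 22 genes and a site in 20, where 15% of all protein-coding genes and 40.5% of those with a site had a run. In the list, 27 of its 297 clusters, or 9.09%, were runs. SF3B1 itself had 3 runs among 25 clusters. DDX42, a helicase of the U2 snRNP, had 4 among 30, DDX46, the helicase that remodels it, 3 among 22, and RBM17, an alternative splicing factor, 3 among 19. U2AF2 had 2 among 7 and SF3B3, whose 48 clusters were the most in the list, had 3. One of the SF3B3 runs held 5 sites over 38 nt. The median was 1 run over the 20 members with a site.

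SR proteins, which bind exons and recruit the splicing machinery, had a run in 8 of 14 genes and a site in 11, beside the same 15% and 40.5% over all genes. Runs made up 18 of their 187 clusters, or 9.63%, and 9.20% over all genes. TRA2A had 5 runs among 23 clusters and SRSF4 had 4 among 20, while SRSF10 had 1 among 19, and SRSF11 and TRA2B had none among 39 and 29. Of 23 hnRNP genes, whose proteins coat nascent RNA, 17 had a run and 19 a site, again beside 15% and 40.5% over all genes. Runs made up 41 of 404 clusters, or 10.1% (7.57% to 13.5%). HNRNPL had 6 among 26 and HNRNPH1 5 among 28, whereas HNRNPM had 1 among 31 and HNRNPC, which binds uridine tracts, 1 among 25.

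Genes known to use other 3′ splice sites in SF3B1 mutants had a run in 10 of 16 and a site in 12, with 15% and 40.5% over all genes. Their runs numbered 22 among 167 clusters, or 13.2% (8.86% to 19.1%), an interval that contains the share over all genes. ENOSF1 had 6 runs among 39 clusters and TTI1 had 3 among 10. TMEM14C, DLST, BRD9 and SLC3A2 had 2 each, and MAP3K7, PPOX and SERBP1 had 1. These lists were picked with earlier results of these data known. The level of their transcripts was not measured here. Sites were reproduced in either condition, so these runs cannot be assigned to wt/wt or K700E/wt cells.

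Histone genes and hosts of small nucleolar RNAs differ in their introns, which most histone genes lack. Of 74 histone genes, 4 had a site in a cluster assigned to that gene alone. Each had 1 such cluster, and H4C8 had the 1 run. H2AC7 and H3C4 each also held a cluster in their span that was not assigned to them and is not counted. Over all 20037 protein-coding genes, 7401 had a site and 15% had a run, or 40.5% of those with a site. Whether introns account for these counts was not tested. Of 14 host genes, which carry small nucleolar RNAs in their introns, 13 had a site and 6 had a run, and runs made up 9 of 107 clusters, or 8.41%. SNHG1 had 3 runs among 15 clusters, SNHG14 2 among 14 and GAS5 1 among 15. Among all long non-coding RNA genes, 1.26% had a run, and 22.9% of the 1005 with a site did.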

How the data were processed

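Per the file headers, the deposited list holds merged 5 nt sites reproduced by all replicates of either condition. The authors' score column is 0 in all rows of the deposited list. Per the submitters' processing notes, STAR 2.6.1b and 2.7.3a, UMI-tools 1.0.0, bedtools 2.27.1 and builds GRCh38 p10 and p12 were named, without roles; the peak caller is not given in the sources used here. How sites were merged and spaced sets the smallest distance and can limit how runs look.

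Positions were made 1-based, and the middle of a cluster was set against RefSeq gene spans of GRCh38.p14. Clusters in more than 1 protein-coding gene were left out of counts per gene. Clustering was tested on simulated data, where 4000 of 4000 clusters were recovered, and 500 of 500 gene assignments equalled a direct search. No test was made, since the list has no replicate values. Planned results on splice sites and on sequence around all runs were not computed, as no genome was used. Named genes are the 10 with the most runs, the 10 with the highest share, those of the 10 longest runs, non-coding genes with 3 or more runs, and list members; NSUN5P1, SRSF11, TRA2B, the small RNA genes and the genes of printed sequences were added after their values were seen, and cell type markers are named as a check of the label. Some genes that these rules name are not reported here. Members and lists were chosen with earlier results of these data known. Alternatives changed both distances, strands, genes and numbers. Python 3.11.15, NumPy 2.4.6, pandas 2.3.3, SciPy 1.17.1 and matplotlib 3.10.9 were used.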

Additional observations from a re-analysis of the deposited data

How the results depend on the processing

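Of 178 recalculations of 22 results, 113 stayed within the interval of the reported value or, for counts, within 1.5 times of it. Results with the distances varied follow from the rule. With an inner distance of 8 nt, 93.7% of runs had 2 sites, the median width was 11 nt, 66.2% had 1 number and 9.5% of lone elements had several sites. With 17 nt these values were 85.8%, 13 nt, 42.3% and 14.96%. With 5 nt there were 1268 runs in 1003 genes, 97.5% with 2 sites, a median width of 10 nt, 91.8% with 1 number and 3.15% of lone elements with several sites. The last 10% of genes then held 14.1% of them, 1.12 points above single sites, and the downstream minus upstream difference was 0.55 points. Keeping 1 site per number left 2681 runs in 1827 genes, 94.9% with 2 sites, a median width of 14 nt, 0 runs with 1 number by construction and 6.01% of lone elements with several sites. A linking distance of 40 nt moved the downstream minus upstream difference of single sites to -2.49 points and lone elements with several sites to 12.4%. The plus strand had 2928 runs in 1555 genes with 5.23% in the first 10%, and the minus strand 2772 in 1445 genes with 3.86%. Counting every biotype put 99.4% of runs in genes, and a minimum of 2 runs left 1205 genes. Genes of at least 50 kb held 15.1% of runs in the last 10%, -1.31 points from single sites, and shorter genes 9.92%. Genes that overlap no other gene held 3.85% in the first 10%, and runs were 0.82 points above single sites in the last 10%. The sign of that small difference thus depended on the genes and the inner distance. For neighbours at 61 to 250 nt the difference of single sites was -3.87 points, and at 400 to 550 nt it was 0.49 for single sites and -0.42 for runs. Among 60 recounts in the 10 genes with the most runs, 36 stayed within 1.5 times. The comparisons of neighbours and of lone elements, the recounts in named genes, the use of 1 site per number beyond the number of runs, the strands for the number of genes, and the alternatives for the difference from single sites other than another comparison set were chosen after seeing the data. No replicate was left out. No paired analysis was possible because positions were merged over libraries before deposit. Exon, splice-site and base-composition alternatives were not run. What depth limits cannot be stated from positions alone.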

Other observations

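Some genes with many clusters had few runs. GARS1, the glycyl-tRNA synthetase gene, had 46 clusters and no run, the most clusters of any gene without one. ZFC3H1, which acts in nuclear RNA decay, had 1 run among 50 clusters, GCN1 1 among 48 and LSS, an enzyme of sterol synthesis, 1 among 40. They were chosen after their values were seen. At the other end, 130 genes had runs and no other kind of cluster, but none of these had more than 3 clusters.

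Running numbers are skipped in places along a strand. A skipped number stood next to 16.0% of runs (15.1% to 16.96%), 15.7% of clusters of 2 elements and 19.3% of single sites (18.9% to 19.7%). No run had a site on the opposite strand within 60 nt, 0 of 5700, which allows a share of up to 0.0526%, taken as 3 counts of the total rather than as a Wilson bound. This was not counted for the other clusters, so it is not shown to be particular to runs.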
